A study of Homo sapiens with 2 samples.

Results

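The 1 Mb stretches of the human genome in which LDB1 peaks lay closest together were examined in cells labelled NB4, a line established from human acute promyelocytic leukemia. Each chromosome was divided into bins of 1 Mb from its first base, and the peaks whose midpoint fell in each bin were counted. Bins with 35 or more peaks were kept, so the bins were chosen by the peak count itself. Of 3044 bins, 12 met the rule (0.394%), and they held 490 of the 11046 LDB1 peaks (4.44%). The series held 1 CUT&Tag library made with an LDB1 antibody and 1 made with IgG, an antibody with no chosen target. In this assay the antibody brings a transposase to the protein, and the DNA cut nearby is sequenced. Both are labelled as NB4 cells. The labels give LDB1 overexpression as the treatment of the LDB1 library and untreated cells for the IgG library. Antibody and treatment therefore cannot be told apart. The paper's CUT&Tag methods mention no overexpression. Only the authors' deposited LDB1 peaks were used. Their columns hold coordinates and lengths without any height, the read depth is unknown, and with 1 library there was no replicate check. The paper reports that LDB1 results from another binding assay, ChIP-Seq, matched its CUT&Tag results in NB4 fairly well. That comparison was not examined here.

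LDB1 has no DNA-binding domain of its own. It holds together complexes in which LMO2 bridges factors such as TAL1, which binds E-box sequences, and GATA1 or GATA2, which bind GATA sequences. LDB1 molecules can also pair with each other and so bring distant enhancers and promoters together. In red cell and megakaryocyte precursors the complex is known for sitting on a composite DNA element, in which the remnant of an E-box stands a short distance ahead of a GATA sequence.

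The composite element was searched for in the 200 bp around each peak midpoint, as CTG followed after 7 or 8 bases by A or T, then GATA, then A or G, on either strand. A total of 29 dense-bin peaks carried it. The longest such peak outside annotated exons in each of 9 bins is shown, to let a reader see what the element looks like in the genome. Each stretch is 61 bases of hg38, 5′ to 3′ on the strand of the element, and the capitals mark the element. The sequence from the bin of GSE1 lies at chr16:85403169-85403229 on the minus strand, in an intron, with a spacer of 7 bases. That from the bin of PHGDH lies at chr1:119737347-119737407 on the plus strand, within 3 kb of a transcription start site (TSS), with a spacer of 8 bases. That from the bin of SRGAP2C lies at chr1:121213650-121213710 on the minus strand, in an intron. That from the bin of HSPG2 lies at chr1:21320525-21320585 on the minus strand, in an intron of ECE1. That from the bin of MDGA1 lies at chr6:37314939-37314999 on the minus strand, in an intron of TBC1D22B. That from the bin of JARID2 lies at chr6:15915790-15915850 on the plus strand, between genes, with a spacer of 7 bases. The sequence from the bin of FPR3 lies at chr19:51736124-51736184 on the plus strand, between genes. The sequence from the bin of TULP2 lies at chr19:48854318-48854378 on the plus strand, near a TSS, with a spacer of 7 bases. The sequence from the bin of RAB31 lies at chr18:9009179-9009239 on the plus strand, between genes.
GSE1 bin: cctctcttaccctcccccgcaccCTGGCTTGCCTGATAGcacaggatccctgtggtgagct
PHGDH bin: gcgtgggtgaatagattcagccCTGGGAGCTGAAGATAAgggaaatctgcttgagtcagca
SRGAP2C bin: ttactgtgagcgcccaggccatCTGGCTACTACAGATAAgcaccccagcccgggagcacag
HSPG2 bin: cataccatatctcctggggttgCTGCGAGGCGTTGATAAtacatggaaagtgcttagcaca
MDGA1 bin: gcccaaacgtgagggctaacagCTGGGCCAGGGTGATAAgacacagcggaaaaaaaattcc
JARID2 bin: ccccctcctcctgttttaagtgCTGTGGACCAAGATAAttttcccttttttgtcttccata
FPR3 bin: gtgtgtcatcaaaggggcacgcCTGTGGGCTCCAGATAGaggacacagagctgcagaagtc
TULP2 bin: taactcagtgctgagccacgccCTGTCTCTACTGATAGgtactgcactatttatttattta
RAB31 bin: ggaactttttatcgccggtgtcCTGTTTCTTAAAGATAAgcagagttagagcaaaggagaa
All 9 came from peaks whose central 31 bases occur once in hg38.

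The dense bins stood well above the rest of the genome in the count that chose them. The median over all bins was 1 peak, the mean was 3.63, and 1251 bins held none. The 12 bins held 36 to 54 peaks, which is 9.92 to 14.9 times the mean. The 2 bins just inside the limit held 36 peaks, and the 2 just outside it, on chromosomes 17 and 19, held 34. No dense bin adjoined another. The bins lay on 8 chromosomes, and the neighbouring bins held from 0 to 27 peaks. The neighbour with 27 was the bin on chromosome 1 from 120 to 121 Mb, which separates the PHGDH and SRGAP2C bins. Where the bins begin mattered: after a shift of 500 kb, 11 bins passed and overlapped 7 of the original 12, and 246 of the 490 peaks were in both sets. The fullest shifted bin held 65 peaks and straddled the end of the PHGDH bin.

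Within the bins the peaks were bunched. Neighbouring peaks were less than 1 kb apart in 106 of 478 pairs (22.2%), compared with 1268 of 10521 pairs (12.1%) elsewhere, which restates the density. When such peaks were merged into 1, only the GSE1 bin still held 35 or more, with 45. The fullest 100 kb of a bin held from 28.2% of its peaks, in the JARID2 bin, to 64.4%, in the PHGDH bin. Peak length differed little, with a median of 464.5 bp (441 to 500) in the dense bins and 451 bp (445 to 457) elsewhere. Each interval in the text is a 95% interval of counting error within this library, and it treats peaks as independent although peaks of 1 bin share a locus.

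**Figure D1:**
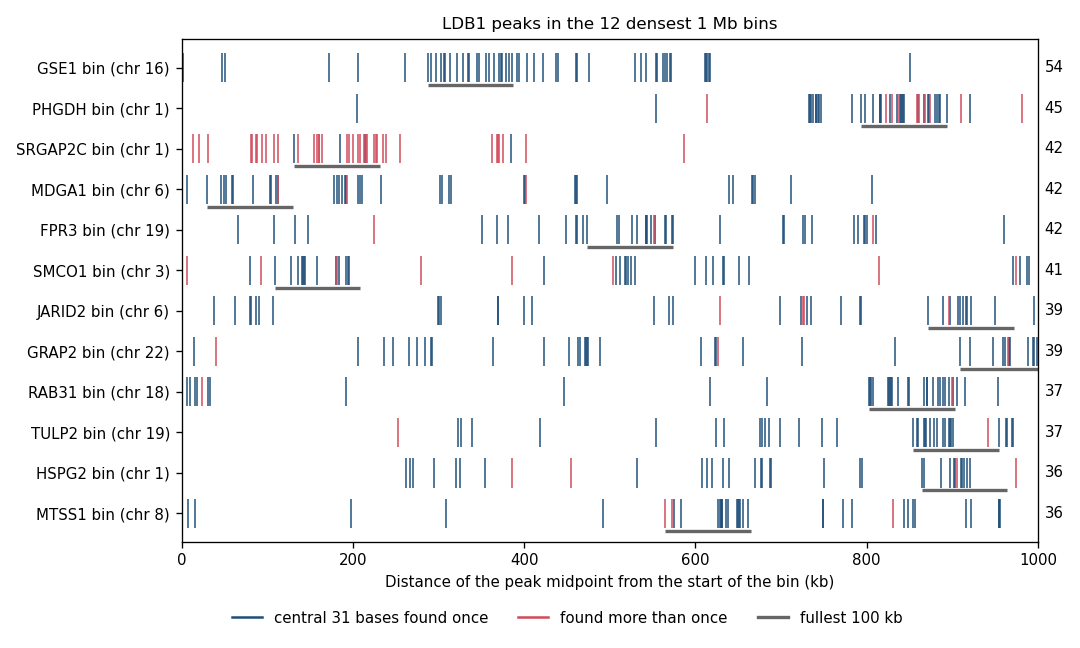
Each row is 1 dense bin, named by the protein-coding gene with the most peaks, and each tick is a peak midpoint at its distance in kb from the start of the bin. Red ticks are peaks whose central 31 bases occur more than once in the genome, the grey bar is the fullest 100 kb, and the number at the right is the peak count. The SRGAP2C row is almost all red, and the PHGDH and RAB31 rows hold 64.4% and 62.2% of their ticks in 100 kb.

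Genes differ in number between bins, so the genes with a protein-coding TSS in each bin were counted. The dense bins held from 2 to 42 such genes with a median of 9.5, compared with a median of 4 over the 2936 bins that are mostly sequenced. The SRGAP2C and JARID2 bins held 2 each. The TULP2 bin held 42 and the FPR3 bin 38. The 664 bins with 9.5 or more genes had a median of 6 peaks, above the upper quartile of 5 over all bins and below each dense bin. The bin with the most genes, 70, had 5 peaks. Over all bins the rank correlation between peaks and genes was 0.624 and that between peaks and GC content was 0.590, given as descriptions, since bins share 1 library.

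**Figure D2:**
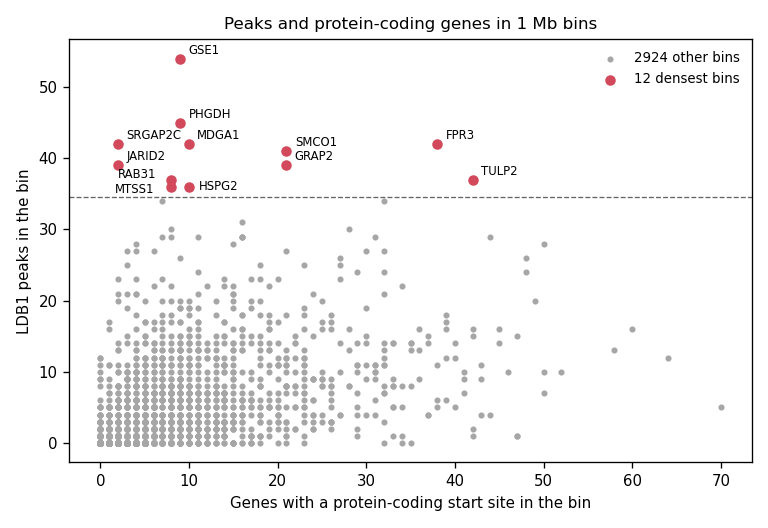
Each point is a 1 Mb bin, with the number of genes that have a protein-coding start site on the horizontal axis and LDB1 peaks on the vertical axis, and the dashed line marks the limit that chose the dense bins. The 12 dense bins, in red, spread from 2 to 42 genes, while the bin with 70 genes holds 5 peaks.

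The bins differed in whether 1 gene or many held the peaks. A peak was counted for a gene when its midpoint lay in the gene or within 3 kb of it, so a peak can count for more than 1 gene. In the densest bin, chromosome 16 from 85000001 to 86000000, GSE1 held 50 of the 54 peaks (92.6%). GSE1 encodes a protein found in histone deacetylase co-repressor complexes. It had the most peaks of any protein-coding gene, 9.75 per 100 kb over a length of 506680 bp. Of its 50 peaks, 9 carried a GATA motif, compared with 47.1% of all peaks. Its longest peak, of 3703 bp at chr16:85376759-85380461, was intronic and carried no GATA motif. KIAA0513 had 2 peaks and ZDHHC7, a palmitoyltransferase, had 1. IRF8, a transcription factor of monocytes and dendritic cells, lies in the same bin and had 0 peaks.

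In the bin on chromosome 8 from 124000001 to 125000000, MTSS1 held 17 of 36 peaks (47.2%). MTSS1 binds actin and bends membranes. Of its 17 peaks, 9 had a GATA motif, near the 47.1% of all peaks. The noncoding gene LINC00964 held 10, among them the longest peak of the bin at 1305 bp. NDUFB9, a subunit of respiratory complex I whose annotation overlaps that of MTSS1, had 4 and FER1L6 had 2. MTSS1 was the 6th protein-coding gene by peak count, shared with 2 others, and SRGAP2C the 2nd.

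In the bin on chromosome 1 from 21000001 to 22000000, 3 genes held most of the 36 peaks. HSPG2, which encodes the basement membrane proteoglycan perlecan, had 12, and ECE1, which processes endothelin, and RAP1GAP, which turns off the small GTPase Rap1, had 6 each. The longest peak, of 3938 bp at chr1:21903731-21907668 in HSPG2, had a centre found 156 times in the genome. On chromosome 18, in the bin from 9000001 to 10000000, RAB31, an endosomal small GTPase, had 12 of 37 peaks. TXNDC2, a thioredoxin-like protein of spermatids, had 4 peaks within 3 kb of its 3510 bp. All 4 carried a GATA motif and 3 the composite, which were found in 47.1% and 11.1% of all peaks. VAPA, which tethers the endoplasmic reticulum to other membranes, had 2. The longest peak there, at 1409 bp, lay in RAB31.

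On chromosome 22, in the bin from 39000001 to 40000000, the 39 peaks lay over several genes of different function. GRAP2, an adaptor of T cell and platelet signalling, had 8 peaks, of which 5 had a GATA motif, compared with 47.1% of all peaks. MGAT3, which adds a bisecting sugar to N-glycans, had 7 and CACNA1I, a calcium channel, had 5. The longest peak, of 2082 bp at chr22:39625638-39627719 in CACNA1I, had a centre found 5070 times. In the bin on chromosome 6 from 15000001 to 16000000, 20 of 39 peaks were intergenic. JARID2, a partner of the Polycomb complex PRC2, had 7 and DTNBP1, a subunit of a complex that builds lysosome-related organelles, had 4. The longest peak of that bin, at 2061 bp, was intergenic.

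In the bin on chromosome 6 from 37000001 to 38000000, 26 of 42 peaks were intergenic, among them the longest, of 2677 bp at chr6:37049825-37052501. MDGA1, a surface protein of neurons, had 5 peaks, TBC1D22B, which has a Rab GTPase-activating domain, had 4 and CMTR1, an mRNA cap methyltransferase, had 3. The kinase gene PIM1 had 1, outside the gene but within 3 kb of it. On chromosome 3, in the bin from 196000001 to 197000000, SMCO1, a membrane protein, had 4 of 41 peaks, including the longest of the bin at 3586 bp. MELTF, an iron-binding protein of the transferrin family, had 3 and NRROS, which holds latent TGF-beta on myeloid cells, had 2. TFRC, the transferrin receptor through which red cell precursors take up iron, had 1 peak of 601 bp, which carried a GATA motif.

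Both bins on chromosome 19 were rich in genes. In the bin from 51000001 to 52000000, 23 of 42 peaks lay within 3 kb of a TSS. FPR1, a receptor with which phagocytes sense bacterial peptides, and its relative FPR3 had 5 peaks each, and their annotations overlap. SPACA6, a sperm membrane protein, had 2. The longest peak, of 4348 bp at chr19:51545891-51550238, was intergenic. The bin also holds genes of SIGLEC receptors, which bind sialic acid on immune cells. Of the protein-coding ones with a peak, SIGLEC6 and SIGLEC8 had 2 each and SIGLEC5, SIGLEC7, SIGLEC9, SIGLEC10 and CD33 had 1 each. SIGLEC genes without a peak are not listed, so these counts give no share of the family. Of the 180 protein-coding genes with a TSS in a dense bin, 100 had a peak (55.6%), which follows from the choice of bins. The CD33 peak, of 233 bp, had a centre found 25 times in the genome, and 5 of the other copies lay in peaks. In the bin from 48000001 to 49000000, 29 of 37 peaks (78.4%) lay near a TSS. TULP2, a tubby-like protein, had 8, PLEKHA4, a phosphoinositide-binding protein, had 6 and PPP1R15A, the stress-induced subunit that returns the initiation factor eIF2α to its active state, had 3. The peak over PPP1R15A was 4856 bp long, at chr19:48872056-48876911, and was the longest of the whole list. The apoptosis gene BAX had 3 peaks and the ferritin light chain gene FTL had 1. All had their midpoints outside these genes but within 3 kb, and the FTL peak was also counted for BAX.

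Genes of blood lineages in these bins were counted from 6 lists. Of 30 red cell genes, 27 granulocyte genes and 20 myeloid transcription factors, 1 each had its TSS in a dense bin: TFRC, CD33 and IRF8. None of 23 genes of the LDB1 complex and its partners, 17 megakaryocyte genes and 19 candidate targets named by the study did. Over all protein-coding genes 180 of 20007 (0.8997%) did. Of those 180 genes, 100 had a peak (55.6%), compared with 19.5% of all protein-coding genes, which follows from the choice of bins. As a check of the labelled cell type over all peaks, 26 of the 30 red cell genes (86.7%) and 10 of the 27 granulocyte genes (37.0%) had a peak. So did 14 of the 23 complex and partner genes, 8 of the 17 megakaryocyte genes and 9 of the 20 myeloid factors. Of the candidate targets 13 of 19 did, and of all protein-coding genes 19.5%. Of the granule protein genes that mark promyelocytes, AZU1 had 1 peak, and CTSG, ELANE, MPO and PRTN3 were without any, whereas CEBPE, a transcription factor of granulocytes, had 3. Red cell genes thus had a peak more often than granulocyte genes in a library labelled as a promyelocytic line. The paper's supplement holds a short tandem repeat report of an NB-4 sample that matched the reference line. That sample was submitted by a cell company, while the methods name a cell bank as the source of the NB4 cells. Whether it came from the cells of this library is not stated. A peak does not measure expression, and a peak list cannot settle which cells were used.

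The bin on chromosome 1 from 121000001 to 122000000 differed from the others in its sequence. The central 31 bases of 38 of its 42 peaks (90.5%, 77.4 to 97.3) occurred more than once on the 24 main chromosomes of hg38, compared with 10.7% of all peaks. SRGAP2C, a copy of SRGAP2 that arose by duplication in the human lineage and acts in neurons, held 22 of the peaks. FAM72B had 1 peak, of 1102 bp. Of the 38 repeated centres, 33 had further copies on chromosome 1 only and none had a copy in the same bin. A copy lay in SRGAP2 for 16 of them and in SRGAP2B for 14. Most, 31, occurred 3 to 10 times, the median was 3.5 and the highest 100. For 6 of the 38, another copy lay within another peak. Short reads from such copies cannot always be assigned to 1 of them, and how the authors' alignment placed them is not stated. The longest peak of the bin, of 2738 bp at chr1:121092312-121095049, had a centre found 3 times.

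The excess of repeated centres over the 12 bins together was that of the SRGAP2C bin. Repeated centres made up 16.3% of the peaks in all 12 bins, 80 of 490, against 10.4% of the 10556 other peaks, a difference of 5.89 percentage points (2.82 to 9.47). Without the SRGAP2C bin the share was 9.38% and the difference turned to -1.07 points (-3.50 to 2.04). By bin, the share was above that of the other peaks in 4 of the 12 bins, and in 7 when 51 bases were compared. The GSE1 bin had no repeated centre among 54 peaks (0 to 6.60%). The SMCO1 bin, on chromosome 3, had 8 of 41 (19.5%), with centres found up to 27461 times. The PHGDH bin had 10 of 45 (22.2%), of which 7 had further copies on chromosome 1 only and 5 in the same bin. PHGDH, the first enzyme of serine synthesis, had 9 peaks there, including the longest of the bin at 2676 bp, and NOTCH2, a Notch receptor, and REG4, a secreted lectin, had 3 each. Of its 45 peaks, 29 lay in 100 kb from 119793603 to 119893602, a stretch that contains REG4 and the pseudogene NBPF7P, which had 7. When only peaks with a centre found once were counted, 8 of the 12 bins, with 308 peaks, still reached 35. The SRGAP2C, SMCO1, HSPG2 and MTSS1 bins did not.

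**Figure D3:**
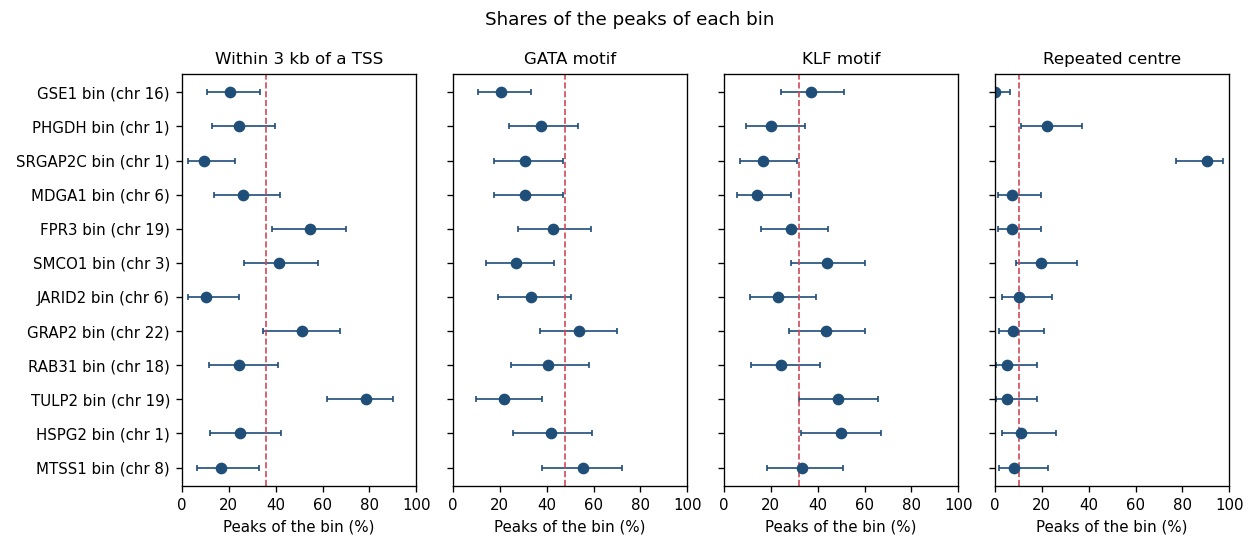
Points are the share of the peaks of each dense bin that lay near a TSS, carried a GATA or KLF motif, or had a repeated centre, bars are 95% Clopper-Pearson intervals, and the dashed line is the share of all peaks outside the dense bins. The SRGAP2C bin stands apart at 90.5% repeated and the TULP2 bin at 78.4% near a TSS, while GATA shares lie left of the line in 10 of 12 bins.

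The peaks of the dense bins were less often near promoters than the rest, by a small margin. Within 3 kb of a TSS lay 31.4% of them (27.3 to 35.7), compared with 35.6% of all peaks and 35.8% of the others. The difference from the others was -4.35 points (-8.41 to -0.0143), and without the SRGAP2C bin it was -2.30 points (-6.61 to 2.29). The shares by bin ran from 9.52% in the SRGAP2C bin to 78.4% in the TULP2 bin. Introns held 37.6% and intergenic sequence 28.6%, against 36.6% and 25.02% of the other peaks, and the intervals of both differences included 0. Without the SRGAP2C bin the intergenic difference was 4.45 points (0.327 to 8.90), an interval that excluded 0.

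GATA motifs, the binding sequence of the factors that LMO2 and LDB1 join, were less common in the dense bins. The motif (A or T, then GATA, then A or G) was found in the central 200 bp of 175 of 490 peaks (35.7%, 31.5 to 40.1), compared with 47.1% of all peaks and 47.6% of the others. The difference was -11.9 points (-16.1 to -7.48). It was -11.5 points without the SRGAP2C bin, and leaving out each bin in turn kept the share between 34.1% and 37.6%. In the windows 1000 bp to either side the motif was found in 26.7% for dense-bin peaks and 27.6% for the others, so the 2 groups differed at the peaks more than beside them. Among other peaks weighted to the same GC content, the share was 46.1%. The share was also lower than that of the other peaks among those near a TSS (32.5% against 42.5%), in introns (38.6% against 50.4%) and between genes (35.7% against 51.3%).

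The composite element followed the same order. It was found in 29 dense-bin peaks (5.92%, 3.999 to 8.39), compared with 11.1% of all peaks and 11.4% of the others, a difference of -5.46 points (-7.33 to -2.94). Since the composite contains a GATA motif, the 2 shares are not independent. In the flanks it was found in 1.22%, so dense-bin peaks still held it 4.83 times as often as their flanks, against 6.92 times for the others. By peak length, the composite was in 2.12% of dense-bin peaks and 7.61% of the others up to 400 bp, in 6.34% (3.42 to 10.6) and 15.2% from there to 800 bp, and in 12.5% (6.63 to 20.8) and 11.6% above 800 bp. The last class held 96 dense-bin peaks, and whether the difference varied with length was not tested.

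The GATA share fell stepwise with the number of peaks in a bin. Peaks alone in their bin carried the motif in 62.1% of 377 cases (57.0 to 66.99). The share was 55.1% in bins with 2 to 4 peaks, 50.96% with 5 to 9, 43.7% with 10 to 24, 36.2% with 25 to 34 and 35.7% in the dense bins. The dense bins and the 29 bins with 25 to 34 peaks thus differed by less than their intervals. The composite fell in the same order, from 23.3% (19.2 to 27.95) of lone peaks to 14.2%, 12.3%, 9.62%, 6.87% and 5.92%. The median GC content of the windows moved with it, from 49.5% to 54.5% in bins with 25 to 34 peaks, but was 52.5% both in the dense bins and in those with 10 to 24. The share near a TSS also rose along the classes, from 25.2% to 42.3%, before the 31.4% of the dense bins. The part of these measures in the trend was not tested. The KLF motif, found in 25.5% of lone peaks, was found in 37.6% of peaks in bins with 25 to 34 and 31.6% in the dense bins.

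**Figure D4:**
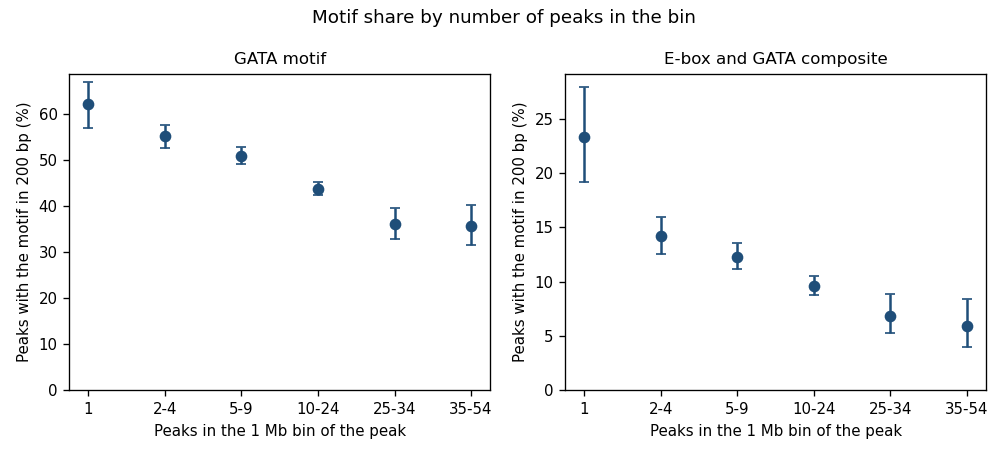
Peaks are grouped by how many peaks their own 1 Mb bin holds, on the horizontal axis, and points give the percent with a GATA motif (left) or the composite (right) in the central 200 bp, with 95% Clopper-Pearson intervals. The GATA share goes from 62.1% for lone peaks to 35.7% in the dense bins, and the composite from 23.3% to 5.92%.

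The 12 bins were not alike in their motifs. The GATA share ran from 20.4% in the GSE1 bin and 21.6% in the TULP2 bin to 53.8% in the GRAP2 bin and 55.6% in the MTSS1 bin. The GRAP2 and MTSS1 bins alone were above the share of the other peaks. The GSE1 and TULP2 bins had the windows richest in GC, at 60% and 59%. Other peaks of the same GC content as the GSE1 bin had a share of 33.3%, and those matched to the TULP2 bin 37.4%. Compared in this way, 9 of the 12 bins were lower, and the GRAP2, MTSS1 and HSPG2 bins were higher. Some of these calls were close: 42.9% against 43.7% in the FPR3 bin, which was lower. They were 55.6% against 53.4% in the MTSS1 bin and 41.7% against 41.5% in the HSPG2 bin. The composite was in 6 of 37 peaks of the RAB31 bin (16.2%) and 5 of 39 of the GRAP2 bin (12.8%), and in 1 or 2 peaks in each of 9 bins, the HSPG2 bin having 4. Across the 361 bins with 10 to 34 peaks the median GATA share was 42.9% with quartiles of 35% and 53.3%, and in the dense bins it was 35.6% with quartiles of 29.9% and 42.0%, so the ranges overlapped.

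The other motifs differed by fewer points. The ETS motif (A or C, then GGAAGT) was in 3.27% of dense-bin peaks and 6.33% of the others, a difference of -3.06 points (-4.40 to -1.04), and in 5.61% of the flanks of dense-bin peaks. In whole peaks the ETS shares were 15.5% and 15.7%, a difference of -0.215 points, and at a limit of 30 peaks per bin they were 4.47% (3.01 to 6.36) and 6.30%, an interval that reached the share of the others. The share in the central 200 bp was 0.582 times that of the flanks, against 1.42 times for the other peaks. The E-box (CAG, any base but T, then TG) was in 41.8% and 46.0%, a difference of -4.17 points (-8.56 to 0.350). The sign of the difference turned in whole peaks and after the shift of the bins. In dense-bin peaks the E-box was 1.002 times as common as in their flanks, against 1.20 times for the other peaks. The AP-1 motif (TGA, C or G, TCA), to which JUN and FOS bind, was in 10.8% and 9.42%, a difference of 1.40 points (-1.12 to 4.51). In dense-bin peaks AP-1 was 2.47 times as common as in their flanks, against 2.64 times for the other peaks. The RUNX motif (TG, C or T, GGT) was in 20.4% and 20.5%, with a difference of -0.0541 points (-3.48 to 3.81). The KLF motif (CC, any base, C, any base, CCC) was in 31.6% and 32.1%, with a difference of -0.416 points (-4.48 to 3.92). By bin it ran from 14.3% in the MDGA1 bin to 50% in the HSPG2 bin.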

How the data were processed

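The authors made 2 CUT&Tag libraries from NB4, 1 with IgG and 1 with an antibody to LDB1. Per the methods, paired-end reads were aligned to hg38 with Bowtie2 (2.4.4 in the submitters' processing notes) and peaks were called with MACS3 (3.0) at a q-value limit of 0.01. Use of the IgG library as control and the handling of duplicates and ambiguous reads are not given in the sources used here. The deposited values were peak starts, ends and lengths in bp, counted from 1. Depth is unknown. No column of per-sample values was left unused.

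Genes came from GENCODE release 44. Peaks near a TSS had a midpoint at most 3 kb from that of any annotated transcript. Motifs were searched on both strands in 200 bp windows, and exact copies of the central 31 bases (51 as an alternative) were counted on 24 chromosomes. Shares have Clopper-Pearson and differences Newcombe 95% intervals, for counting error only. Other peaks were weighted to the GC content of dense-bin windows in steps of 5%. The counting was tested on simulated data.

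The bins, motifs and gene lists were chosen with earlier results of these data known. The rule named all bins, up to 3 protein-coding genes per bin with the most peaks, the longest peak per bin and list members with a TSS there. Some sequences the rule would print are not reported here. PIM1, BAX, FTL, AZU1, CEBPE, CTSG, ELANE, MPO, PRTN3, the SIGLEC genes and noncoding genes outside this rule were named after their values were seen. Alternatives chosen after seeing the data were placement by peak start, equal weight per bin, leaving out each bin, GC weighting, and the classes by peaks per bin, peak length and place. Scripts ran in Python 3.11.15 with pandas 2.3.3, SciPy 1.17.1, numpy 2.4.6 and, for plots, matplotlib 3.10.9.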

Additional observations from a re-analysis of the deposited data

How the results depend on the processing

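Of 101 alternatives to 14 results, 72 left the value within its interval or within 1.5 times the count and 29 moved it. The number of dense bins was 6 at a limit of 40 peaks, 54 for bins of 500 kb with 18 or more, and 1 with peaks under 1 kb apart merged. The peaks in them were 266 at the limit of 40 and 308 with a centre found once. The share near a TSS was 15.3% for protein-coding transcripts and 17.4% for a window of 1 kb. In windows of 100 bp and in whole peaks, which hold fewer and more bases, the share was 20.2% and 60.8% for GATA, 2.86% and 12.04% for the composite, 22.9% and 74.5% for the E-box, 6.74% and 21.6% for AP-1, 1.22% and 15.5% for ETS (against 3.04% and 15.7% of the other peaks), 11.02% and 44.3% for RUNX, and 17.6% and 57.1% for KLF. At the limit of 40 the share was 31.2% for GATA, 3.38% for the composite, 27.1% for KLF and 23.3% for repeated centres, and the cause was not tested. The E-box share was 46.4% with bins shifted by 500 kb. Repeated centres were 9.80% at 51 bases and 9.38% without the SRGAP2C bin. Leaving out each bin gave 9.38% to 18.4% for repeated centres. No paired analysis was possible because there was only 1 LDB1 library.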
